A study of Mus musculus with 8 samples.

Results

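Pomc and 7 other genes of the pituitary hormone system were followed through the cochlear transcriptome of mice with (WT) and without (KO) miR-29a. They are Pomc, the hormone genes Gh, Prl, Cga, Tshb and Lhb, and the prohormone convertase genes Pcsk1 and Pcsk2. All 8 were found by symbol among the 21895 genes listed. The genes were chosen by measured values of these same libraries. Pomc had been selected on its large increase in KO1 to KO3 over WT1 to WT3, and the other 7 were added to ask whether it moves alone or with other pituitary hormones and with the enzymes that process them. Genotype differences of these 8 genes are therefore given as a description, with no p-value. Where the threshold applied to all genes is also counted for them, the count describes the same values and supports nothing.

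The tissue was the whole cochlea, taken from mice with a germline deletion of miR-29a on a C57BL/6 background (miR-29a-/-, KO) and from wild-type mice (miR-29a+/+, WT). There were 4 libraries per genotype, WT1 to WT4 and KO1 to KO4, and no treatment. The age is 21 days in the series record and 2 months in the study's methods, a difference that was not resolved. Whether each library was 1 animal or a pool is not given in the sources used here, so the spread between libraries may be partly technical. Because the deletion is present in every cell from conception, a difference in the cochlea cannot be told apart from one that reached it from elsewhere in the body.

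Values were FPKM, the fragments of a gene scaled to transcript length and library size, and they can be compared between genes. Comparison between libraries depends on how these are scaled, as the shares of called genes given below show. Read counts were not used here, the depth behind a value is unknown, and the FPKM of a library summed to between 249221 and 288695. Coch, the most abundant cochlear marker examined, lay between 1231 and 1927 FPKM in every library, and 15 of 16 cochlear marker genes had a mean of at least 0.5 FPKM, the filter a gene had to pass to be tested. WT1 stood apart from the other libraries, with correlations to them of 0.725 to 0.920 over all tested genes, against 0.924 to 0.957 among the KO libraries. KO4 correlated better with WT2 and WT4 (0.960 and 0.963) than with the other KO libraries (0.924 to 0.946). The level of miR-29a itself was not analysed here, so the labels of the libraries were not checked against it.

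The anterior pituitary holds distinct endocrine cell types. Corticotrophs and the melanotrophs of the intermediate lobe transcribe Pomc, whose protein pro-opiomelanocortin is a precursor and not a hormone. PC1/3, the product of Pcsk1, cleaves it to ACTH, and PC2, the product of Pcsk2, cuts further to alpha-MSH and beta-endorphin. Somatotrophs make growth hormone (Gh) and lactotrophs prolactin (Prl), both under the transcription factor POU1F1. Cga encodes the alpha subunit shared by TSH, LH and FSH, whose separate beta subunits are encoded by Tshb, Lhb and Fshb. Pcsk1 and Pcsk2 differ from the hormone genes in being transcribed in many neurons and endocrine cells outside the pituitary.

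The microRNA deleted in these mice is shown first, since a direct target would carry a match to its seed. Mature miR-29a-3p lies at chr6:31062673-31062694 on the minus strand (RefSeq, GRCm38.p6), and bases 2 to 8, the seed, are in capitals.
mmu-miR-29a-3p: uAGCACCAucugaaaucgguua
The complement of this seed, TGGTGCT, was searched in the longest annotated 3′-UTR of each gene in GENCODE mouse release 21. It occurred in 0 of the 8 genes and in 2294 of 14832 tested genes that have a 3′-UTR, or 15.5%. The 3′-UTRs of the hormone genes are short, at 72 bases for Tshb, 95 for Gh, 155 for Prl, 174 for Pomc and 227 for Cga. Those of Pcsk1 (2542 bases) and Pcsk2 (2474 bases) are long and also lacked the letters. The absence of these 7 letters says nothing of other modes of pairing.

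Promoters are shown for Pomc and for Prl and Cga, 2 genes whose levels followed Gh across the libraries (described below with the hormone ratios). Each stretch runs from 250 bases before to 50 after the RefSeq gene start in GRCm38.p6, on the strand of the gene, and 7 of the 8 genes had an entry. Capitals mark matches on either strand to TATAAA (the TATA box), TATNCAT (the core bound by POU1F1) and TAATCC (the core bound by PITX factors). Of 32851 such promoters, 13.6% held the first, 8.84% the second and 7.06% the third.
Pomc, chr12:3954695-3954994, plus strand: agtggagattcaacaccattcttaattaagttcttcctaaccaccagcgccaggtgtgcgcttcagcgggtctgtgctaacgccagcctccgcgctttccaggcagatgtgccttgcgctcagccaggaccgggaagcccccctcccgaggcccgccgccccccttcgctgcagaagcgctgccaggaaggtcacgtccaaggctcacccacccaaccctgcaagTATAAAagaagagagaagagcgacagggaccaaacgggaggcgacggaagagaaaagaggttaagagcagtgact
Prl, chr13:27057320-27057619, plus strand: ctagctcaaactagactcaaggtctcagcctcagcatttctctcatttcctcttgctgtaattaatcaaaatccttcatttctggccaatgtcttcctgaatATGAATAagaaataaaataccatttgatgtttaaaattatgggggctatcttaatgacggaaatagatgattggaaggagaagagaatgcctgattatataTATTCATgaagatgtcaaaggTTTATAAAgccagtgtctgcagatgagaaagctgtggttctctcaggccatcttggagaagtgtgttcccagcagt
Cga, chr4:34893529-34893828, plus strand: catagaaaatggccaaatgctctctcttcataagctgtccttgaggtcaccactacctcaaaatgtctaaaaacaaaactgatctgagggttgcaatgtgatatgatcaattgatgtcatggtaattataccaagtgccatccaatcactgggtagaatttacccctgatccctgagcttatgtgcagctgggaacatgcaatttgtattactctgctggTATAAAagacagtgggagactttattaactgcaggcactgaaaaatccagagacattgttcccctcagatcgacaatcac
The Pomc and Cga stretches each held 1 TATA box, starting at positions -25 and -30 from the gene start. The Prl stretch held a TATA box at position -24, which overlaps a match on the other strand, and POU1F1 cores that begin at positions -148 and -47. Tshb and Lhb also held a TATA box near the start, at positions -27 and -31. The Pcsk1 stretch held a PITX core and no TATA box, and that of Pcsk2 held none of the 3 motifs. Such matches are descriptions of the sequence and do not show binding.

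Pomc (ENSMUSG00000020660, chr12:3954951-3960642 in GRCm38, plus strand) was higher in the KO libraries on average, but the genotypes overlapped and each held 1 library far above the rest. Its level was 0.090 FPKM in WT1, 1.10 in WT2, 2.35 in WT3 and 13.8 in WT4. In the KO libraries it was 7.53 FPKM in KO1, 3.06 in KO2, 65.9 in KO3 and 9.71 in KO4. KO3 was 4.77-fold above the next library, which was WT4, and WT4 exceeded 3 of the 4 KO libraries. The lowest and highest libraries differed 732-fold. The group levels were 4.34 ± 6.38 FPKM in WT and 21.5 ± 29.7 in KO (mean ± SD, n = 4 each), with medians of 1.73 and 8.62. On the log2(FPKM + 0.1) scale the fold change, KO minus WT, was 2.74 with a standard error of 1.32. In a bulk sample, fewer cells of a type and less RNA per cell cannot be told apart, and this holds for every level given here.

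The fold change of Pomc depended on which libraries were compared. In the 6 libraries numbered 1 to 3, where Pomc had been singled out, KO exceeded WT by 3.82 (SE 1.34) on that log2 scale. In WT4 and KO4, which that comparison left out, the order was the other way, 13.8 against 9.71 FPKM, with 1 library per genotype. Without WT1, the library lowest in Pomc, the fold change was 1.70 (SE 1.10), and without KO3 it was 1.89. Without KO3 and KO4 together it was 1.56 (SE 1.56). The difference was above 0 in all 18 alternative fits, which rework values of the same libraries. Those that change only the filter, the variance trend or a block for the replicate number could not alter it.

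Gh (ENSMUSG00000020713, chr11:106300271-106301865, minus strand) was the most abundant of the hormone transcripts in every library. It was at 0.844 FPKM in WT1, 51.6 in WT2, 52.8 in WT3 and 1278 in WT4, and at 266 in KO1, 63.3 in KO2, 604 in KO3 and 46.4 in KO4. WT2, WT3, KO2 and KO4 lay close together irrespective of genotype, whereas WT4, KO3 and KO1 were high and WT1 was low. The range over the 8 libraries was 1515-fold. Its mean was higher in WT (346 ± 622 FPKM) than in KO (245 ± 259), but its median was higher in KO (165 against 52.2), and the log2 fold change was 1.79 (SE 1.92).

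Prl (ENSMUSG00000021342, chr13:27057570-27065205, plus strand) ranked the 8 libraries in the same order as Gh. Its level was 0.820 FPKM in WT1, 7.99 in WT2, 8.16 in WT3 and 391 in WT4. In the KO libraries it was 44.0 in KO1, 9.45 in KO2, 82.5 in KO3 and 6.54 in KO4. WT4 was 4.74-fold above KO3, the next highest, and KO4 lay below WT2 and WT3. The log2 fold change was 0.82 (SE 1.68).

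Cga (ENSMUSG00000028298, chr4:34893779-34907370, plus strand), the shared glycoprotein hormone subunit, was low in most libraries. It was listed at 0 in WT1 and at 0.131 FPKM in WT2, 0.192 in WT3 and 15.9 in WT4. In the KO libraries it was at 2.23 in KO1, 0.326 in KO2, 2.12 in KO3 and 0.0646 in KO4. WT4 again held the highest level, 7.12-fold above KO1, and the log2 fold change was 0.44 (SE 1.59). Fshb, which was not among the 8 genes but encodes the FSH beta subunit, was highest in the same libraries, at 5.26 FPKM in WT4, 1.10 in KO3 and 0.685 in KO1. It was listed at 0 in WT1 and KO4 and was at or under 0.0844 in WT2, WT3 and KO2.

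The beta subunits of TSH and LH were at or near the bottom of the measured range. Tshb (ENSMUSG00000027857, chr3:102775465-102782911, minus strand) was listed at 0 in WT1 and WT3, and at 0.151 FPKM in WT2 and 0.366 in WT4. In the KO libraries it was at 0.0977 in KO1, 0.120 in KO2, 0.668 in KO3 and 0.0505 in KO4. Tshb lay below the minimum mean of 0.5 FPKM used for the test, and its log2 fold change was 0.53 (SE 0.71 in the fit without that minimum). It lies within the span of Tspan2 on the other strand, which was at 4.63 to 11.2 FPKM, and whether fragments were counted by strand is not given in the sources used here. Lhb (ENSMUSG00000100916, chr7:45420820-45421897, plus strand) was listed at 0 in all 8 libraries. Its position is also spanned by the annotated genes AC151602.1, at 0.721 to 2.40 FPKM, and Ruvbl2, at 8.24 to 14.4, so fragments from Lhb may have been assigned elsewhere or left uncounted, and its 0 is uncertain.

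**Figure D1:**
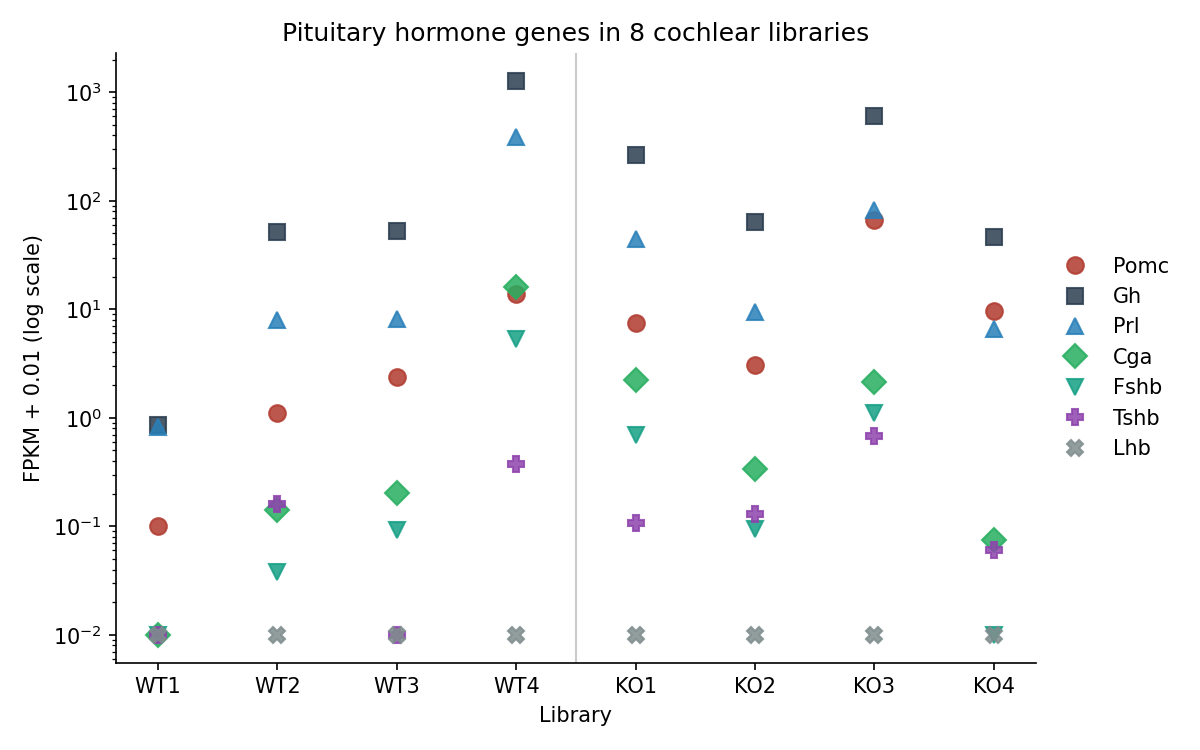
FPKM of 7 pituitary hormone genes (vertical axis, log scale, with 0.01 added so that values of 0 can be drawn) in the 4 WT and 4 KO libraries (horizontal axis), 1 point per gene and library. Gh, Prl, Cga and Fshb are highest in WT4, whereas Pomc and Tshb are highest in KO3, and all 7 genes are lowest or at 0 in WT1.

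Gh, Prl, Cga and Fshb ranked the libraries of both genotypes in much the same order, and Pomc and Tshb did so less closely. As log2(FPKM + 0.1) over the 8 libraries, Gh and Prl had a Pearson correlation of 0.958 and a Spearman correlation of 1, and without WT1 and WT4, the libraries farthest from the median of Gh, the Pearson value was 0.998. The Spearman correlation of Gh was 0.976 with Cga and 0.994 with Fshb, against 0.738 with Pomc and 0.731 with Tshb. By Pearson correlation these pairs were not set apart, at 0.866 for Gh with Cga, 0.818 with Fshb, 0.880 with Pomc and 0.775 with Tshb. Without WT1 and WT4 the Pearson values of Gh were 0.952 with Cga, 0.982 with Fshb and 0.768 with Tshb. Cga and Fshb had a Pearson correlation of 0.989 (Spearman 0.970). Pomc had Pearson correlations of 0.807 with Prl (Spearman 0.738) and 0.683 with Cga (0.667). Without KO3 and WT1, the libraries farthest from the median of Pomc, its Pearson correlation was 0.669 with Gh and 0.653 with Prl. As deviations from the mean of each genotype, pooled over the 8 libraries, Pomc correlated at 0.907 with Gh, 0.886 with Prl and 0.774 with Cga, and Gh with Prl at 0.967. These correlations are descriptions over 8 libraries that share their depth and tissue composition, and the libraries at the ends of the range carry much of them.

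The ratio between the hormones separated Pomc from Gh and Prl more plainly than the levels did. Per 100 FPKM of Gh, Prl was at 15.5 in WT2, 15.5 in WT3 and 30.6 in WT4, and at 16.6, 14.9, 13.7 and 14.1 in KO1 to KO4. WT1, with under 1 FPKM of either hormone, had a ratio of 97.2. The ratio of Prl to Gh was thus nearly constant in the 4 KO libraries, WT2 and WT3, although Gh itself ranged from 46.4 to 604 FPKM in these. Pomc per 100 FPKM of Gh was at 10.7 in WT1, 2.14 in WT2, 4.44 in WT3 and 1.08 in WT4. It was at 2.83 in KO1, 4.84 in KO2, 10.9 in KO3 and 20.9 in KO4. This ratio spanned 19.4-fold, with the lowest value in WT4 and the highest in KO4, against a 7.11-fold span of Prl to Gh over all libraries. The log2 mean of the Pomc ratio was 1.21 higher in KO with overlapping groups. Per 100 FPKM of Prl, Pomc was at 3.53 in WT4, 79.8 in KO3 and 149 in KO4, the last being the 1 library in which Pomc exceeded Prl. WT1, which held the lowest Pomc level, had a ratio to Gh close to that of KO3, the library with the highest. That WT1 ratio rests on under 1 FPKM of both genes, so little is read from it, and it enters the log2 difference above.

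**Figure D2:**
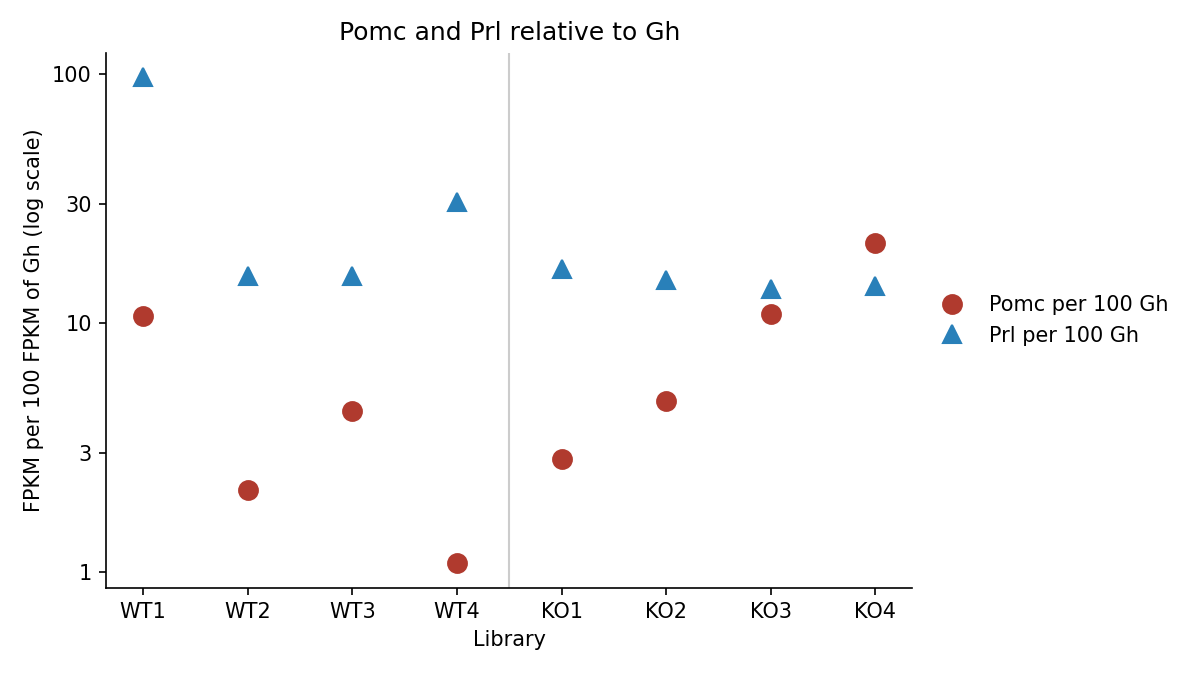
FPKM of Pomc and of Prl per 100 FPKM of Gh (vertical axis, log scale) in each library (horizontal axis). The ratio of Prl lies between 13.7 and 16.6 in WT2, WT3 and all KO libraries, where that of Pomc runs from 2.14 to 20.9. In WT4 and WT1 the ratio of Prl is 30.6 and 97.2, and that of Pomc is 1.08 and 10.7. The ratio of Pomc overlaps between genotypes.

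Pcsk1 and Pcsk2, whose products cleave pro-opiomelanocortin, did not follow Pomc closely. Pcsk1 (ENSMUSG00000021587, chr13:75089826-75134861, plus strand) was at 0.738 FPKM in WT1, 2.54 in WT2, 1.89 in WT3 and 2.79 in WT4, and at 1.22, 3.36, 1.44 and 1.99 in KO1 to KO4. The genotypes overlapped almost completely, at 1.99 ± 0.916 FPKM in WT and 2.0 ± 0.960 in KO, and the log2 fold change was 0.05 (SE 0.46). Pcsk2 (ENSMUSG00000027419, chr2:143546156-143816285, plus strand) was at 6.32 FPKM in WT1, 17.4 in WT2, 17.8 in WT3 and 15.6 in WT4, and at 8.75, 12.0, 11.3 and 13.6 in KO1 to KO4. WT2, WT3 and WT4 were above every KO library and WT1 was below every one, so that the groups overlapped only through WT1. The level was 14.3 ± 5.39 FPKM in WT and 11.4 ± 2.0 in KO, with a log2 fold change of -0.23 (SE 0.33). Without WT1 it was -0.58 (SE 0.16). KO3, which held the highest Pomc level, held neither the highest Pcsk1 nor the highest Pcsk2.

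**Figure D3:**
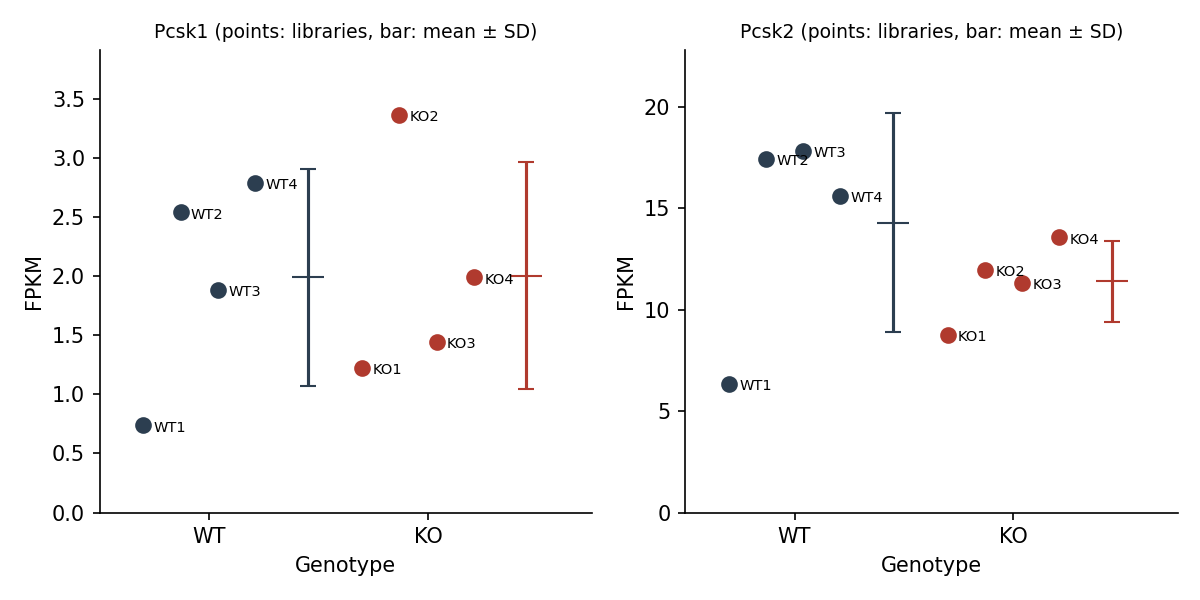
FPKM of Pcsk1 (left) and Pcsk2 (right) in WT and KO libraries, 1 point per library with the mean and SD of the group beside it. The Pcsk1 values of the genotypes are intermingled, and the Pcsk2 values of WT2, WT3 and WT4 lie between 15.6 and 17.8 above KO values of 8.75 to 13.6, with WT1 at 6.32 below them.

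Across the 8 libraries Pcsk2 went with several neuronal transcripts instead, and Pcsk1 mostly did so less closely. Pomc and Pcsk1 had a Pearson correlation of 0.303 (Spearman 0.190), and Pomc and Pcsk2 one of 0.310 (-0.02). Without KO3 and WT1 these were -0.22 and -0.42. As deviations from the genotype means, pooled over the 8 libraries, they were 0.341 and 0.569. Pcsk2 correlated with Scg5, which encodes the PC2 chaperone 7B2, at 0.958 (Spearman 0.905). Its correlation was 0.939 with Snap25 (Spearman 1), a protein of synaptic vesicle fusion, and 0.971 with Slc17a7 (Spearman 0.952), a vesicular glutamate transporter. Pcsk1 correlated at 0.784 with Scg5 (Spearman 0.571), 0.757 with Snap25 (0.595) and 0.782 with Slc17a7 (0.5). With Cpe, Pcsk1n and Chga, which were also examined, Pcsk2 correlated at 0.911, 0.818 and 0.793, and Pcsk1 at 0.835, 0.814 and 0.672. Pcsk1 and Pcsk2 had a Pearson correlation of 0.787 (Spearman 0.595). WT1 was lowest in Pcsk1, Pcsk2, Scg5, Snap25 and Slc17a7. Without the 2 libraries farthest from the median of Pcsk2, KO1 and WT1, its correlations with Scg5, Snap25 and Slc17a7 were 0.807, 0.858 and 0.882. Those of Pcsk2 with Cpe, Pcsk1n and Chga were then 0.705, -0.015 and 0.579. Without KO2 and WT1, the libraries farthest from the median of Pcsk1, Pcsk1 correlated at 0.875 with Scg5, 0.581 with Snap25 and 0.823 with Slc17a7.

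Beside one another, the genotype differences of the 6 genes with a mean of at least 0.5 FPKM were 2.74 for Pomc, 1.79 for Gh, 0.82 for Prl, 0.44 for Cga, 0.05 for Pcsk1 and -0.23 for Pcsk2, all as log2 fold changes. A gene was called at an unadjusted two-sided p under 0.05 in limma, and 0 of these 6 were called. Over all 14990 tested genes, 5.12% were called in either direction, 4.61% higher and 0.507% lower in KO, and 0 had a Benjamini-Hochberg adjusted p under 0.05. The values of WT and KO did not overlap in 0 of the 8 genes, against 3.5% of the tested genes. The median of all tested genes was itself 0.10 higher in KO on this log2 scale. It was 0.005 after median-ratio scaling of the libraries and -0.04 after quantile normalisation, and the share of called genes that were higher in KO was 90.1%, 52.6% and 40.9% respectively.

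In the 6 libraries numbered 1 to 3, 4 hormone genes had differences of like size. The log2 fold changes were 3.82 (SE 1.34) for Pomc, 3.98 (1.68) for Gh, 3.05 (1.10) for Prl and 2.78 (0.82) for Cga, against 0.23 for Pcsk1 and -0.24 for Pcsk2. Pomc, Prl and Cga passed the threshold there, as did 4.51% of all tested genes, but Pomc had been chosen on these very values, so nothing is read from that count. Without WT1, the 7 remaining libraries gave 1.70 (1.10) for Pomc, -0.04 for Gh, -0.44 for Prl and -0.40 for Cga. The 1 gene of the 6 called without WT1 was Pcsk2, lower in KO, beside 19.5% of all tested genes.

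**Figure D4:**
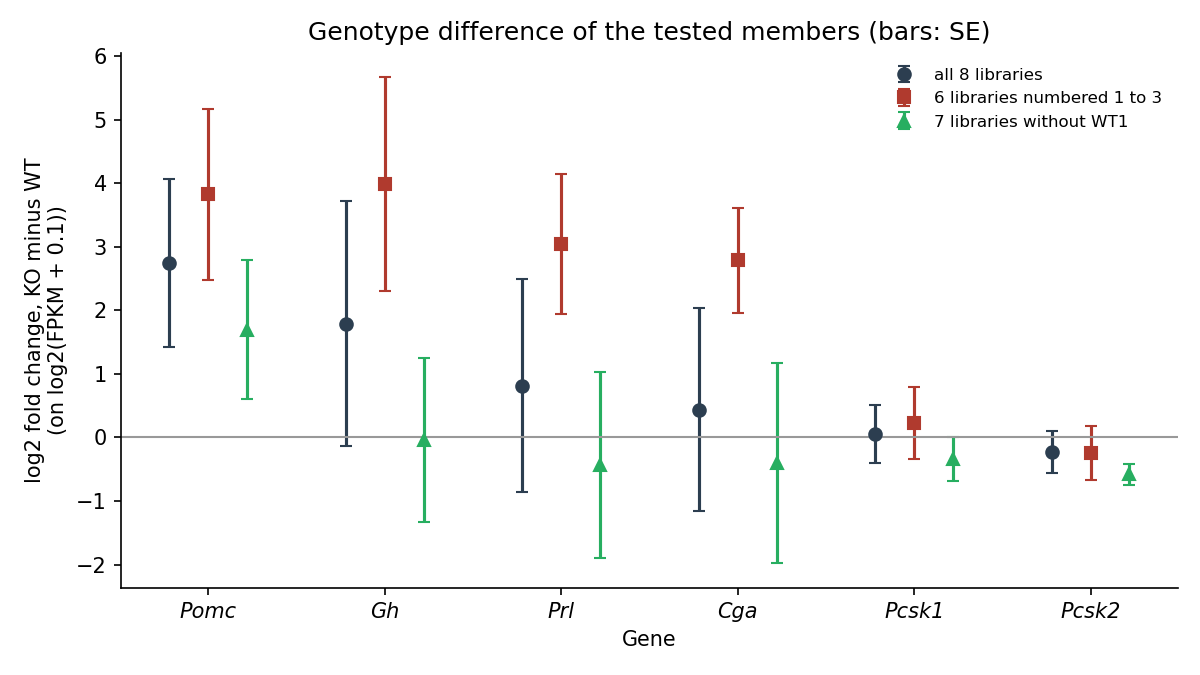
log2 fold change, KO minus WT, on the log2(FPKM + 0.1) scale (vertical axis) of 6 genes (horizontal axis), with bars for the standard error, in all 8 libraries, in the 6 numbered 1 to 3 and in the 7 without WT1. Pomc stays above 0 in the 3 sets, Gh, Prl and Cga are between 2.78 and 3.98 in the 6 libraries and between -0.44 and -0.04 without WT1, and the convertases stay within 0.6 of 0.

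Among other genes that mark pituitary cells, some were low and varied with the hormones between libraries. Of 16 pituitary transcription factors, 6 passed the filter and 0 were called. The sum of all 16 did not follow Gh, at 43.9 FPKM in WT2, 36.2 in WT4, 24.5 in KO3 and 17.8 in KO1. Pou1f1, the factor of somatotrophs, lactotrophs and thyrotrophs, was listed at 0 in WT1 and was at 0.266 FPKM in WT2, 0.0939 in WT3 and 4.45 in WT4. It was at 1.53 in KO1, 0.128 in KO2, 1.23 in KO3 and 0.0950 in KO4, so WT4, KO1 and KO3 were its 3 highest libraries, as for Gh. Its Pearson correlation with Gh was 0.878 (Spearman 0.857). Tbx19, the factor of corticotrophs and melanotrophs, was at 0.360 FPKM in WT4 and 0.368 in KO3, at 0.123 in KO1, and at or under 0.0718 in the other libraries, with 0 in WT1 and WT3. It correlated with Pomc at 0.832 (Spearman 0.886) and about as much with Gh, at 0.827 (0.850). Without KO3 and WT1 the Pearson value for Pomc was 0.769, and without WT1 and WT4 that for Gh was 0.925. Pax7, a factor of melanotrophs, did not exceed 0.0720 FPKM, a level it reached in KO3.

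The transcription factors above the filter were mostly those used in other cells too. Isl1 and Gata2 had the highest mean levels of the 16, and Neurod1, Otx2 and Lhx3 were the others beside Pou1f1. WT2 held the highest Neurod1 (15.9 FPKM) and the highest Otx2 (11.7), and also the highest level of the prolactin receptor Prlr, at 10.7 FPKM against at most 2.46 in the other libraries. WT2 was not among the libraries high in hormone transcripts.

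Among receptors through which the hypothalamus controls the pituitary, some also varied with the hormones. Of 10 such genes, Crhr1 and Esr1 passed the filter, and 0 were called. The sum of all 10 was 18.6 FPKM in WT4 and 17.4 in KO3. It was 11.4 in KO1, below the 15.1 of KO4 and the 14.3 of WT2. Crhr1, the receptor for the corticotropin-releasing hormone, was at 8.74 ± 3.86 FPKM in WT and 8.78 ± 2.71 in KO. Ghrhr, the somatotroph receptor for growth hormone-releasing hormone, was highest in WT4 (1.95), KO1 (0.746) and KO3 (0.421), the 3 libraries highest in Gh. Gnrhr, the gonadotroph receptor, reached 0.941 in WT4. Drd2, the dopamine receptor of lactotrophs and melanotrophs and also of neurons, was at 0.0213, 0.0708, 0.223 and 0.650 FPKM in WT1 to WT4 and at 0.593, 0.424, 1.08 and 0.434 in KO1 to KO4. It followed Pomc closely, with a Pearson correlation of 0.956 (Spearman 0.976, and 0.907 without KO3 and WT1). With Gh the Pearson correlation of Drd2 was 0.855 (Spearman 0.833, and 0.782 without WT1 and WT4). As deviations from the genotype means, Drd2 correlated at 0.938 with Pomc and 0.915 with Gh. Drd2 was singled out after its values were seen.

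Hypothalamic neuropeptides were scarce. Of 12 genes, 5 passed the filter and 0 were called, and Hcrt was listed at 0 in every library. Agrp and Gnrh1 had the highest means, and the Pearson correlation of Pomc was 0.110 with Agrp (Spearman 0.238) and 0.161 with Cartpt (Spearman 0.5), which marks the Pomc neurons of the hypothalamus among other cells. The other 10 genes were not compared with Pomc in this way. The sum of the list was highest in WT4 (10.2 FPKM), the library highest in Gh, and in KO2 (9.80), and ran from 2.83 to 4.73 elsewhere. The releasing hormone genes Crh, Trh and Ghrh were each at or under 0.157 FPKM in every library.

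The enzymes and helpers of prohormone processing differed little between genotypes. Of 18 genes, 17 were tested and 1 was called. The most abundant were Cpe, the carboxypeptidase that trims cleaved peptides, at 126 ± 47.1 FPKM in WT and 123 ± 12.9 in KO, the cathepsin gene Ctsb at 116 ± 15.8 and 120 ± 24.1, and Pam, the peptide-amidating enzyme, at 50.0 ± 11.8 and 52.1 ± 4.57. Furin, the convertase of the constitutive pathway, was at 27.7 ± 5.84 FPKM in WT and 30.2 ± 1.58 in KO. The called gene was Qpct, which encodes the glutaminyl cyclase that forms pyroglutamate at the ends of peptides. Qpct was at 3.65, 4.63, 5.93 and 5.31 FPKM in WT1 to WT4 and at 1.51, 2.74, 2.87 and 2.57 in KO1 to KO4. Every KO library lay below every WT library, and the log2 fold change was -1.0 (SE 0.26), with a limma p adjusted over all tested genes of 0.922. Over the 17 genes the log2 fold change had a median of 0.04, beside 0.10 for all tested genes.

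Proteins of the secretory granule and its release were likewise alike between genotypes in the 8 libraries. All 14 genes passed the filter and 0 were called, with a median log2 fold change of -0.03. Snap25 was at 263 ± 100 FPKM in WT and 243 ± 17.2 in KO, and the granule protein gene Chga at 31.2 ± 11.7 and 29.4 ± 2.10. WT1 was the lowest library for 10 of the 14 genes. Without WT1, 8 of the 14 were called, beside 19.5% of all tested genes. Of these, 6 were then lower in KO, among them Chga, Ptprn, Ptprn2, Syt7 and Vgf, and Rab27a and Rab3d were higher, with limma adjusted p-values of at least 0.145 for the 8. Whether genes of this list were called therefore depended on whether WT1 was included.

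Receptors that could respond to these hormones were also examined. Of 16 receptor and effector genes of the growth hormone, prolactin, thyroid and gonadotropin axes, 12 passed the filter and 2 were called. Stat5a, a transcription factor activated by the growth hormone and prolactin receptors, was at 5.07, 4.54, 4.28 and 5.36 FPKM in WT1 to WT4 and at 5.62, 6.98, 6.68 and 6.28 in KO1 to KO4. Every KO library was above every WT library, with a log2 fold change of 0.40 (SE 0.15, limma adjusted p = 0.947). Thrb, a thyroid hormone receptor needed for hearing, was at 9.57 ± 0.931 FPKM in WT and 7.12 ± 1.45 in KO, with overlapping groups, a log2 fold change of -0.44 (SE 0.18) and a limma adjusted p of 0.947. Stat5a was not called after median-ratio scaling or quantile normalisation or with the replicate block, where its relative Stat5b was called instead, and Thrb was not called with the block. Neither was called in the libraries numbered 1 to 3 or without WT2, WT3, KO2 or KO3, and Thrb was also not called without WT4 or KO4. The most abundant of the list, Thra and Igf1r, were at 38.8 ± 16.2 and 28.4 ± 2.28 FPKM in WT and at 41.7 ± 6.77 and 27.2 ± 0.790 in KO. The growth hormone receptor Ghr was at 16.8 ± 2.01 in WT and 16.01 ± 2.44 in KO.

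Receptors for the peptides cut from pro-opiomelanocortin were scarce. Of 12 melanocortin and opioid receptor, accessory and antagonist genes, 11 were listed, 5 passed the filter and 0 were called. The accessory protein gene Mrap was at 1.35 ± 0.459 FPKM in WT and 1.80 ± 0.541 in KO. The mu-opioid receptor gene Oprm1 reached 4.46 FPKM in KO2 and 2.85 in WT4 and was at or under 1.26 in the other libraries. Among the melanocortin receptors themselves, Mc5r was the most abundant, at 0.243 to 0.721 FPKM, and Mc1r did not exceed 0.0365. Of 12 other opioid and neuropeptide precursor genes, 6 passed the filter and 1 was called. This was Penk, the proenkephalin gene, at 8.23 ± 1.85 FPKM in WT and 5.42 ± 0.831 in KO, with a log2 fold change of -0.58 (SE 0.20, limma adjusted p = 0.947). It was not called without WT2 or without KO3.

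The genes whose pattern over the libraries was most like that of Pomc were not pituitary hormones. Of the 14989 other tested genes, the 5 with the highest Pearson correlation of log2(FPKM + 0.1) were Hacd4 (0.972), Slc39a11 (0.953), She (0.945), Nudcd2 (0.943) and Mettl1 (0.942). Their levels varied far less than that of Pomc, from 3.22 FPKM in WT1 to 6.94 in KO3 for Hacd4, for example. Gh ranked at place 55, Prl at 346, Cga at 1800, Pcsk2 at 7926 and Pcsk1 at 8023, and 392 genes had a correlation of at least 0.8. For Gh the same ranking put Prl at place 4 and Pomc at 98, with 631 genes at or above 0.8. With 8 libraries and so many genes, such correlations describe these libraries only.

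Marker genes of other tissues that adjoin or fill the temporal bone also differed between the libraries, and their part in the hormone values was not tested. The summed level of 5 skeletal muscle genes was 272 FPKM in KO3 and 24.0 in KO4, and ran from 0.471 to 6.13 in the other libraries, with Acta1 at 142 in KO3. KO3 was thus the highest library for Pomc and for muscle, but WT4, the highest for Gh and Prl, was at 6.13. Pomc and Acta1 had a Pearson correlation of 0.795 (0.665 without KO3 and WT1), and Gh and Acta1 one of 0.496. Of the 5 muscle genes, Mylpf was called, higher in KO with a log2 fold change of 2.48 (SE 1.01, limma adjusted p = 0.947). The sum of 5 genes of brown and white fat ran from 1.91 FPKM in WT3 to 29.4 in WT4, and from 7.15 in KO4 to 50.9 in KO2, with 0 of 5 called.

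Of 5 bone marrow genes, Hbb-bt, Vpreb1 and Igll1 were called, all higher in KO. Their log2 fold changes were 1.83, 2.16 and 2.38, and their limma adjusted p-values were 0.947, 0.922 and 0.947. The sum of the 5 ran from 124 FPKM in WT3 to 2323 in WT1, and from 1671 in KO4 to 3894 in KO3. WT1, lowest in every hormone, was the WT library highest in marrow genes, with the neutrophil granule genes Elane at 200.2 and Mpo at 322 FPKM. In WT3 these were at 0.0893 and 0.101. The sum of 5 brain genes ran from 113 FPKM in WT1 to 352 in WT3, and from 200 to 241 in KO, with 4 tested and 0 called. The cortical neuron marker Neurod6 did not exceed 0.271 FPKM. The sum of 5 skin keratinocyte genes was at most 5.33 FPKM, reached in KO3, and Krt10, the 1 gene tested, was not called. Of 5 melanocyte genes, Tyr, the tyrosinase of pigment synthesis, was called, at 2.50 ± 0.496 FPKM in WT and 1.56 ± 0.359 in KO (log2 fold change -0.65, limma adjusted p = 0.947). Of the cochlear marker genes, Tectb, which encodes a protein of the tectorial membrane, was called, at 1.44 ± 0.469 FPKM in WT and 0.578 ± 0.251 in KO (log2 fold change -1.19, limma adjusted p = 0.947).

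**Figure D5:**
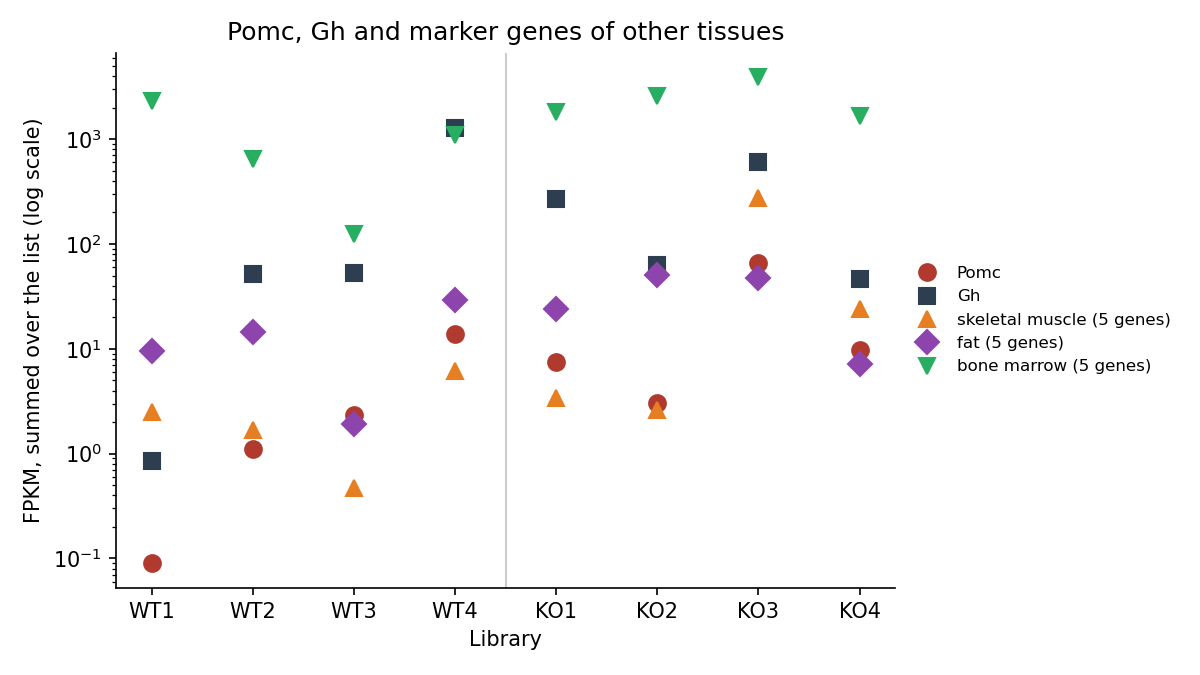
FPKM of Pomc and Gh and the summed FPKM of 5 marker genes each of skeletal muscle, fat and bone marrow (vertical axis, log scale) in the 8 libraries (horizontal axis). The muscle sum peaks at 272 in KO3 together with Pomc, whereas Gh peaks in WT4, where the muscle sum is 6.13.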

How the data were processed

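RNA-seq of the cochlea was analysed in 4 WT and 4 KO libraries, grouped and numbered by their titles. The authors made strand-specific libraries after removal of ribosomal RNA, used Hisat2 to map the read pairs, and deposited gene-level FPKM. Their call rule, an unadjusted p threshold with any fold change, was kept. They tested read counts with DESeq2, which was not repeated here because counts were not used. The labels name mm9, whereas the coordinates in the file are those of GRCm38, with 19771 of 21760 matched genes identical in GENCODE mouse release 21. The tool behind the FPKM is not given in the sources used here. No column was left unused (0).

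The log2 of FPKM plus 0.1 was fitted with limma 3.58.1 (R 4.3.3), with genotype as the only factor and a mean-variance trend, for genes with a mean of at least 0.5 FPKM. Genes were called at an unadjusted two-sided p under 0.05. Benjamini-Hochberg adjustment ran over all 14990 tested genes. On simulated data with independent noise, 186 of 200 randomly picked genes changed by 2 on the log2 scale were called, as were 5.0% of unchanged genes. After Benjamini-Hochberg adjustment, 146 of the 200 passed. This rate does not carry over to the hormone genes, whose standard errors were 1.32 for Pomc, 1.92 for Gh, 1.68 for Prl and 1.59 for Cga. FPKM hold no counts, so counting error cannot be given. Relative depth, estimated from values under 0.1 FPKM, was 0.953 to 1.16 of the median.

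The members and the gene lists were chosen with earlier results of these data known. Genes were named if they were members, called genes of a list, the most abundant of a list or the 5 most like Pomc. Others, such as Fshb, Drd2, Scg5, Slc17a7, Prlr and the transcription factors and receptors given at low levels, were named after their values were seen. The correlations use log2(FPKM + 0.1) and carry no test. They were computed over all 8 libraries and over deviations from the genotype means, not for each genotype alone, as 4 libraries are too few.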

Additional observations from a re-analysis of the deposited data

Results flagged for a closer look

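For the hormone genes and convertases and Fshb, each genotype was searched for a library standing apart from the other 3 by Dixon's criterion. The criterion was applied to FPKM and not to the log2 scale of the fits. It was met in 7 of 16 groups, all of them hormone genes. Its chance rate of about 1 in 20 groups holds for normally distributed values, whereas Gh, for example, spanned 1515-fold. The count is thus a description on the FPKM scale and was not compared with chance. In WT, the library apart was WT4 for Pomc (13.8 FPKM), Gh (1278), Prl (391), Cga (15.9) and Fshb (5.26). In KO, it was KO3 for Pomc (65.9 FPKM) and Tshb (0.668). These groups are not independent, since the same library is apart in several genes.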

How the results depend on the processing

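Pomc was higher in KO and Pcsk2 lower in all 18 alternative fits, whose log2 fold changes ran from 1.56 to 3.82 and from -0.58 to -0.09. Fits that change only the filter, the variance trend or the replicate block return the same fold change by construction, so this count is a description. The other sign appeared in 1 fit for Gh, 1 for Prl, 5 for Cga and 4 for Pcsk1. With 1 library left out, Pomc ran from 1.70 to 3.76, Gh from -0.04 to 3.43, Prl from -0.44 to 2.47 and Cga from -0.40 to 2.04, the lowest each without WT1. Pomc passed the call in 4 of the 18, those on the libraries numbered 1 to 3, without WT4, without KO2 and with the replicate block.

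Replicate numbers are shared by the genotypes, and deviations of same-numbered libraries correlated at 0.419, -0.24, -0.17 and 0.210. Whether such libraries share more than a number cannot be told from so few values. With the replicate block, 838 genes were called in place of 767. The fold change of Pomc could not change there, since each replicate number holds 1 library per genotype. Leaving out 1 library gave 347 (without KO3) to 2922 (without WT1) called genes, with 377 without KO2. Without KO3 and KO4, a choice made after seeing the data, it was 422. The cause was not tested.

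Counts of called genes in the lists are small and moved with the setting. With 1 library left out they ran from 1 to 2 for prohormone processing, 0 to 8 for granule proteins, 0 to 3 for hormone receptors, 0 to 5 for muscle, 2 to 5 for marrow, 1 to 3 for cochlear genes, 0 to 3 for brain genes and 0 to 2 for melanocytes. They were 0 or 1 for hypothalamic neuropeptides, melanocortin and opioid receptors, other neuropeptides, fat and skin, and 0 for pituitary transcription factors and releasing hormone receptors. In the other settings they ran from 1 to 3 for processing, 0 to 3 for hormone receptors, 1 to 3 for cochlear genes, 0 to 2 for muscle, 2 to 3 for marrow, 1 to 2 for other neuropeptides and melanocytes, and 0 to 1 for melanocortin and opioid receptors, brain and skin. Of the called list genes, Qpct, Tectb, Vpreb1 and Igll1 kept their call in all 18 settings, Penk in 16, Tyr in 14, Stat5a and Thrb in 9 each, Mylpf in 9 and Hbb-bt in 6. Fat had 4 called genes in the libraries numbered 1 to 3. The depth behind low values such as Tshb is unknown.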
